A study of Homo sapiens with 12 samples.

Results

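Ribosome biogenesis genes encode the proteins that transcribe, modify, cut and assemble ribosomal RNA in the nucleolus. The 44 genes described here were chosen by name, as a list of nucleolar and ribosome biogenesis factors. No measured value enters the rule, but the list was drawn up with earlier results of these data known. Of these, 43 were found by symbol among the 57773 gene IDs of the table. BOP1, the partner of PES1 and WDR12, was not analysed here. The 43 genes were measured in HEK293 cells, an established human embryonic kidney line, and in the extracellular vesicles that the cells release. All 12 libraries came from cells transfected by lipofection for 48 h with the 4EC1 plasmid, which the design text gives as eGFP-EIF4E-C-YTHDF1/GBP1-CD9. The construct was present in every group, and the series has no group without it. The 4 groups were hypoxia vesicles, normoxia vesicles, hypoxia cells and normoxia cells, with 3 libraries each. Hypoxia was 24 h in a hypoxia chamber. The protocol text is the same for every sample, and the groups follow the treatment label. The labels do not say that replicates came from separate cultures. The tests therefore rest on library-to-library spread alone, which may be technical.

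In the nucleolus, RNA polymerase I transcribes the precursor of the 18S, 5.8S and 28S ribosomal RNAs. Small nucleolar ribonucleoproteins (snoRNPs) then guide its modification, those of the box C/D class by methylation and those of the box H/ACA class by pseudouridylation. Large sets of processing factors cut and fold the precursor into the small and the large subunit. The pathway is among the costliest of a growing cell, and many of its genes are known targets of the transcription factor MYC, which binds the E-box CACGTG together with its partner MAX. As bulk samples, the libraries cannot tell fewer transcript-bearing cells or vesicles from less RNA in each.

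Per the values, each library was scaled by a single factor, so levels are given in deposited units and are comparable between libraries only under that scaling. Cell libraries held 18059381 to 23400813 reads, normoxia vesicle libraries 5266244 to 7001767 and hypoxia vesicle libraries 3259453 to 6129782. Of 7 HEK293 markers, 5 were found in the table, and all 5 were above 10 units in every group. Summed markers of blood, of liver and plasma, of epithelium and of fibroblasts were higher in hypoxia vesicles than in the cells of either condition. The fibroblast sum was 707 to 898 units in hypoxia vesicles, 464 to 805 in normoxia vesicles, 307 to 387 in hypoxia cells and 319 to 384 in normoxia cells. A set of 6599 near-silent protein-coding genes was picked by low values in the cell libraries, with 20 units as the upper limit for the average. Over this set, reads lay at a density of 16.9 units per kilobase in hypoxia vesicles and 7.80 in normoxia vesicles. In cells it was 1.81 in hypoxia and 1.44 in normoxia. The low cell densities are partly fixed by this choice, so the gap between vesicles and cells is not a separate result. Genes with truly higher levels in vesicles can be in the set. Within the normoxia vesicles this density ran from 4.79 to 11.7, and replicate 3 was the library at 11.7. Replicate 3 also had the lowest value of that group for 32 of the 43 members, so vesicle results are given with and without it where it mattered.

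The members made up 1.20% to 1.22% of all reads in hypoxia vesicles and 1.40% to 1.5% in normoxia vesicles. They made up 0.887% to 0.899% in hypoxia cells and 1.15% to 1.21% in normoxia cells. In neither source did the hypoxia and normoxia libraries overlap, and the hypoxia share was the lower one in both. NCL and NPM1 held much of the total: without them the mean shares were 0.468% in hypoxia vesicles, 0.558% in normoxia vesicles, 0.511% in hypoxia cells and 0.665% in normoxia cells. All 43 members passed the filter on low values in every fit, and the fewest reads that any member had in a vesicle library were 8.

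Per kilobase of exon, the level of the members differed widely within a group. In normoxia cells the highest levels were 7368 units per kilobase for NPM1, 3970.0 for NCL, 1401 for NOLC1, 1305 for LTV1 and 1239 for NHP2. The lowest in normoxia cells were 44.6 for PPAN, 69.3 for WDR74, 73.0 for GAR1 and 73.3 for WDR12. In normoxia vesicles the order was led instead by NCL at 14603 units per kilobase, ahead of NPM1 at 2759.6, NOP14 at 1816, UBTF at 1213 and NOP56 at 1201. WDR12 had the lowest level per kilobase in both vesicle groups, 10.7 in hypoxia vesicles and 14.6 in normoxia vesicles.

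Whether hypoxia lowered these transcripts in the cells was asked over the 6 cell libraries. In hypoxia cells nearly the whole set was lower than in normoxia cells: 42 of 43 members fell and none rose (limma on log2(value + 1), Benjamini-Hochberg adjusted p under 0.05). Over all 17260 genes tested, 22.4% were called lower and 8.01% higher. The unadjusted p was under 0.05 for 0 members higher and 42 lower, and edgeR and DESeq2 on recovered reads each called 0 higher and 38 lower. The median log2 fold change of the members was -0.50, with a range of -1.01 to -0.22, against a median of -0.07 over all genes tested and -0.13 over the 10243 protein-coding genes that averaged 100 units or more. In 42 members the 3 hypoxia libraries all lay below the 3 normoxia libraries, where 27.6% of all genes did so. No member lay wholly above, where 12.7% of all genes did. Of the 10243 protein-coding genes, 3536 were called lower and 865 higher, and 4157 lay wholly below and 1170 wholly above. Members of every role in the pathway fell.

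**Figure D1:**
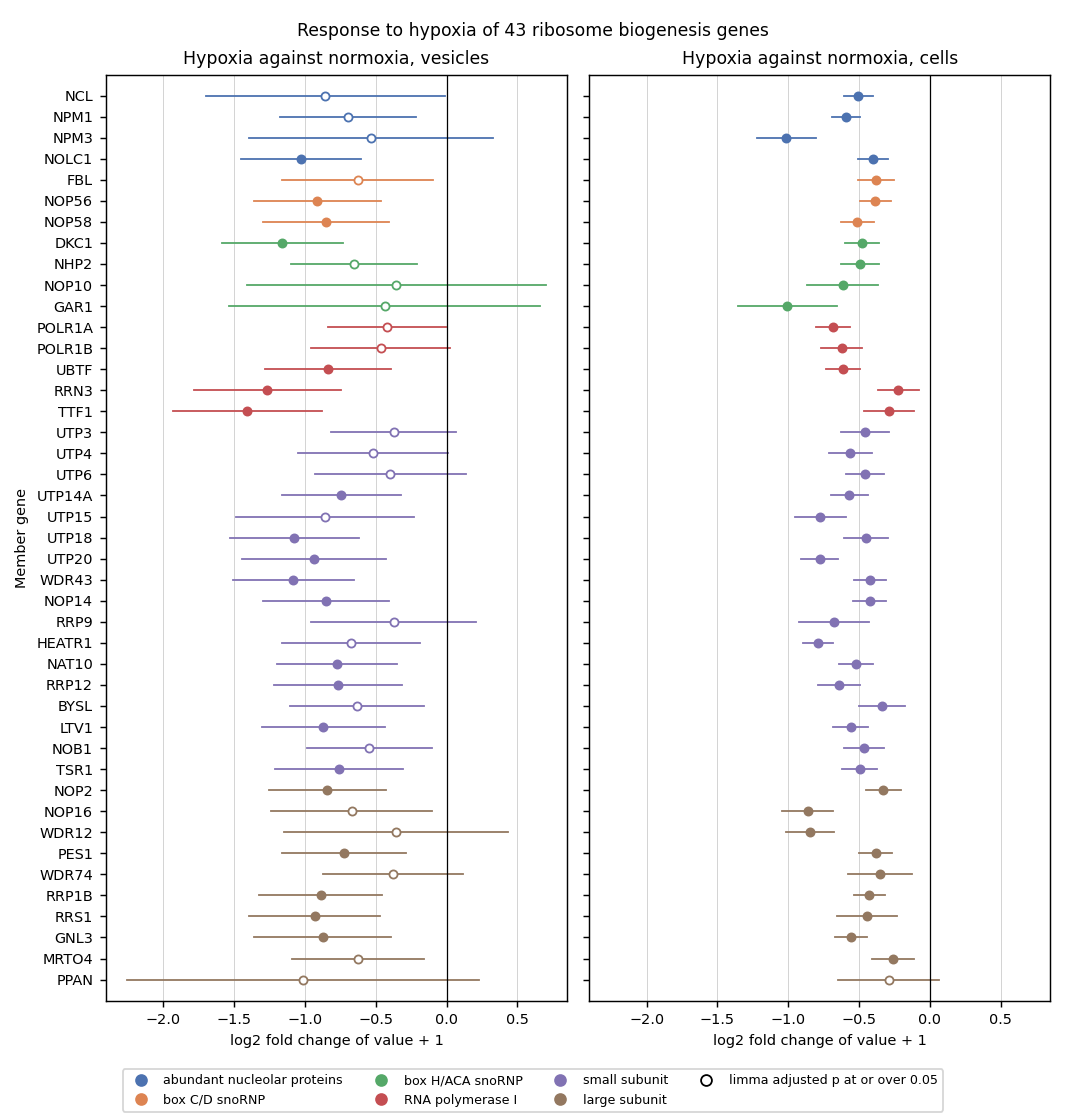
Log2 fold change (value + 1) of hypoxia against normoxia for 43 ribosome biogenesis genes in vesicles (left) and cells (right), with 95% intervals as lines and colours for the role in the pathway. In cells all points lie below 0 and 42 of 43 are filled, that is, past the threshold. In vesicles all points lie below 0, the intervals are wider and 21 are filled.

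Among the abundant nucleolar proteins all 4 members fell in hypoxia cells. NPM3, a relative of the histone chaperone nucleophosmin, fell the furthest of all 43 members. It had 239.6, 202 and 224 units in hypoxia cells, against 418, 457 and 472 units in normoxia cells. The hypoxia mean was 0.495 of the normoxia mean, with a log2 fold change of -1.01 ± 0.11 (SE, adjusted p = 5.17e-12). NPM1, nucleophosmin itself and the most abundant member per kilobase in cells, had 18271, 19083 and 18758 units in hypoxia cells, against 26441, 27852 and 30318 in normoxia cells (log2 fold change -0.59 ± 0.05, adjusted p = 4.61e-15). NCL, nucleolin, which binds the ribosomal RNA precursor, had 18583, 19223 and 20250.3 units in hypoxia cells, against 25746, 26712 and 30068 in normoxia cells. The gap between the NCL groups was larger than the spread within either (log2 fold change -0.51 ± 0.05). NOLC1, the Nopp140 chaperone of snoRNPs, had 4003, 4196 and 4428 units in hypoxia cells, against 5405, 5482 and 5797 in normoxia cells (-0.40 ± 0.05).

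The snoRNP proteins fell without exception in hypoxia cells, 3 of 3 in the box C/D class and 4 of 4 in the box H/ACA class. FBL, fibrillarin, the methyltransferase of box C/D particles, had 1306, 1347 and 1295 units in hypoxia cells, against 1588, 1711 and 1848 in normoxia cells (log2 fold change -0.38 ± 0.07, adjusted p = 3.78e-06). NOP56, a core protein of the same particles, had 2658, 2792 and 2963 units in hypoxia cells, against 3553, 3585 and 3841 in normoxia cells (-0.38 ± 0.06). The libraries of the 2 groups did not overlap for either gene. DKC1, dyskerin, the pseudouridine synthase of box H/ACA particles, had 2076, 2054 and 2092 units in hypoxia cells, against 2668, 2795 and 3236 in normoxia cells (-0.48 ± 0.06). GAR1, a small partner of dyskerin, fell about as far as NPM3: it had 88.7, 74.7 and 59.8 units in hypoxia cells, against 129, 159.8 and 159 in normoxia cells. Its log2 fold change was -1.01 ± 0.18 (adjusted p = 6.37e-06), with a wider error at this low level. The other partners NOP10 and NHP2 had log2 fold changes of -0.62 and -0.49.

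All 5 genes of RNA polymerase I transcription fell in hypoxia cells, but by different amounts. POLR1A, the largest subunit of the enzyme, had 1741, 1716 and 1636 units in hypoxia cells, against 2849.8, 2603 and 2734 in normoxia cells (log2 fold change -0.68 ± 0.06, adjusted p = 8.73e-15). POLR1B, the second largest subunit, had 741, 932 and 865 units in hypoxia cells, against 1231, 1330.4 and 1329 in normoxia cells (-0.62 ± 0.07). UBTF, the architectural factor that keeps ribosomal genes open, had 1786, 1738 and 1648 units in hypoxia cells, against 2658, 2484 and 2763 in normoxia cells (-0.61 ± 0.06). These 3 genes thus fell to a similar extent. RRN3, the factor that makes the polymerase competent to start, had 885, 908 and 777 units in hypoxia cells, against 969.7, 978 and 1049 in normoxia cells. With a log2 fold change of -0.22 ± 0.07 (adjusted p = 0.0155), it moved the least of all members. TTF1, the polymerase I termination factor, had 476, 421 and 417 units in hypoxia cells, against 514, 525 and 566 in normoxia cells (-0.29 ± 0.09, adjusted p = 0.00973). RRN3 and TTF1 did not pass the threshold with equal totals, under edgeR or under DESeq2. Neither passed without replicate 3 of the hypoxia cells or replicate 3 of the normoxia cells, and RRN3 did not pass with no filter.

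The 17 small subunit factors all fell in hypoxia cells, with a median log2 fold change of -0.52. HEATR1, a large factor of the early processome needed for polymerase I transcription, had 2740.0, 2745 and 2755 units in hypoxia cells, against 4643, 4768 and 4844 in normoxia cells. This was among the tightest measurements of the set (log2 fold change -0.79 ± 0.05, adjusted p = 2.25e-19). UTP20, another large processome scaffold, had 1108, 1323 and 1415 units in hypoxia cells, against 2108, 2232 and 2226 in normoxia cells (-0.78 ± 0.07). NOP14 had 2056, 2134 and 2339 units in hypoxia cells, against 2863, 2886 and 3000.5 in normoxia cells (-0.42 ± 0.06). NOB1, the nuclease that makes the end of mature 18S RNA, had 803, 855 and 888 units in hypoxia cells, against 1127, 1134 and 1249 in normoxia cells (-0.46 ± 0.07). RRP12 had 667, 783 and 771 units in hypoxia cells, against 1282, 1040.5 and 1148 in normoxia cells (-0.64 ± 0.08). In none of these genes did the groups overlap. WDR43 and UTP18, subunits of processome modules, had log2 fold changes of -0.42 and -0.45, and the smallest fall of the role was that of BYSL, bystin, at -0.34. The other small subunit members lay between, with UTP15 at -0.77, RRP9 at -0.68, UTP14A at -0.57, UTP4, LTV1 and UTP6 at -0.56, -0.56 and -0.46, and NAT10 and TSR1 at -0.52 and -0.50.

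Of the large subunit factors, 9 of 10 measured members fell in hypoxia cells. NOP16 had 309, 343 and 297 units in hypoxia cells, against 593, 558 and 576 in normoxia cells (log2 fold change -0.86 ± 0.09, adjusted p = 1.62e-11). WDR12, which forms a complex with PES1 and BOP1, had 385, 362 and 363 units in hypoxia cells, against 642, 657 and 701 in normoxia cells (-0.85 ± 0.09). Its partner PES1, pescadillo, moved less, with a log2 fold change of -0.38 ± 0.06. GNL3, nucleostemin, a GTPase of the nucleolus, had 2029, 2216 and 2055 units in hypoxia cells, against 3023, 3039 and 3193 in normoxia cells (-0.56 ± 0.06). NOP2, an rRNA cytosine methyltransferase, had 1557, 1771 and 1614 units in hypoxia cells, against 2079, 2002 and 2121 in normoxia cells (-0.33 ± 0.06). PPAN did not pass the threshold: it had 85.5, 90.1 and 101 units in hypoxia cells, against 84.5, 139 and 121 in normoxia cells (-0.29 ± 0.18, adjusted p = 0.242). PPAN shares 56.0% of its exon bases with the read-through gene PPAN-P2RY11 on the same strand, and NOP2 shares 54.4% with AC006064.6; how the authors' counting treated such shared reads is not known, so both are uncertain.

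The rest of the pathway moved the same way. Of 95 other ribosome biogenesis genes, 94 were found and tested, and 82 fell and none rose in hypoxia cells, with a median log2 fold change of -0.45. By the smallest p these were led by WDR3 (-0.72 ± 0.06) and PDCD11 (-0.58 ± 0.06) of the small subunit and by EBNA1BP2 (-0.69 ± 0.06) and NOC2L (-0.65 ± 0.06) of the large subunit. The count was 34 of 37 for small subunit factors, 34 of 36 for large subunit factors, 7 of 10 for polymerase I subunits and factors, and 7 of 11 for the RNA exosome and its helicase. With equal totals, which shift every gene by 0.13 on the log2 scale in this comparison, 38 members and 70 other genes still fell and all 43 members kept a negative log2 fold change. Of all 17274 genes tested with equal totals, 2038 were called lower and 2306 higher. When the spread was taken from all 12 libraries, the more variable vesicle libraries included, HEATR1, NOP16 and POLR1A were the only members past the threshold, with the same fold changes. In that fit 25 of 24171 genes were called lower and 59 higher.

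**Figure D2:**
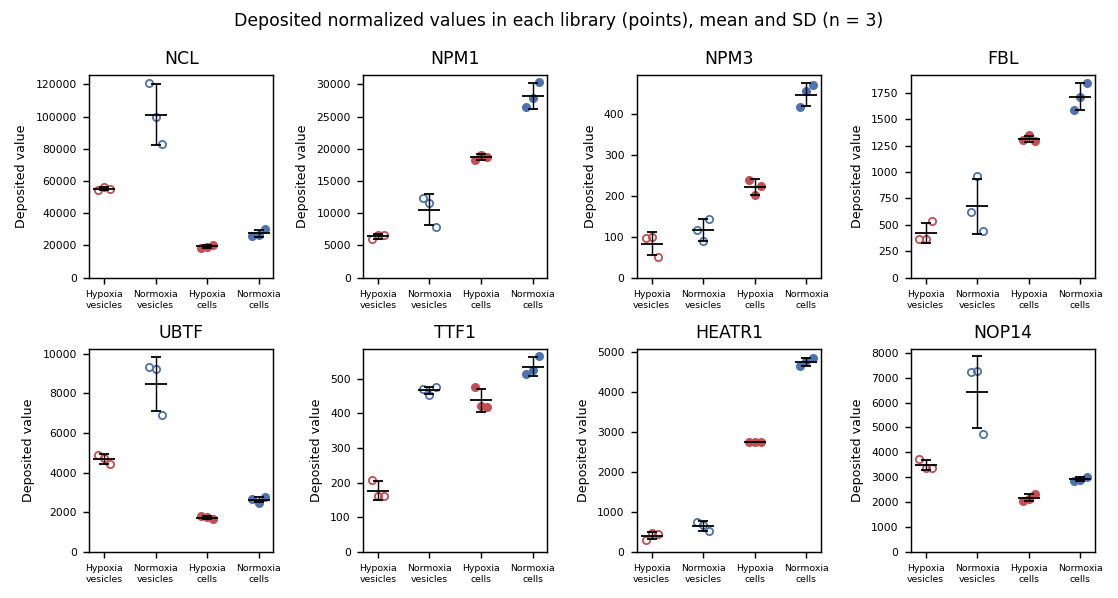
Deposited normalized value (units, vertical axis from 0) of 8 member genes in each library (points), with mean and SD (n = 3) for hypoxia vesicles, normoxia vesicles, hypoxia cells and normoxia cells. NCL, UBTF and NOP14 stand higher in vesicles than in cells of the same condition, and HEATR1 far lower. Hypoxia libraries lie below normoxia libraries in cells for each of the 8 genes.

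The promoters of the members were searched for the E-box, shown here because the genes moved together and because MYC, whose complex reads this motif, was itself lower. MYC had 492, 504 and 583 units in hypoxia cells, against 1331, 1389 and 1466 in normoxia cells (log2 fold change -1.41 ± 0.08), and its part in the members' fall was not tested. RefSeq windows (GRCh38.p14, 250 bases before to 50 after the start) were matched for 38 of the 43 members. CACGTG, which is its own reverse complement, was present in 17 of the 38 (44.7%) and in 8.77% of 27305 genes with such a window. In 16 of the 17 genes an E-box centre lay within 50 bases of the start, as the plot of motif positions shows, and in UTP14A it lay 238 bases before it. In hypoxia cells the median log2 fold change was -0.52 for members with an E-box (17 of 17 fell) and -0.50 for those without (20 of 21 fell), and the difference was not tested. NPM3, HEATR1, NOP16 and WDR12, which were among the members that fell furthest, held no CACGTG in this window. Of the 19 sites in these 17 genes, 11 are given below as examples over the range of falls. The sites, 5′ to 3′ on the strand of the gene with the E-box in capitals, run from the strongest fall in hypoxia cells to the weakest.
GAR1 (chr4:109815783-109815808, plus strand): gccagaggggCACGTGgcgccggtga
UTP20 (chr12:101280085-101280110, plus strand): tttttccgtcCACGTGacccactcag
RRP9 (chr3:51941894-51941919, minus strand): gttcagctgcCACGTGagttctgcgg
NOP10, near site (chr15:34343132-34343157, minus strand): aattgacgaaCACGTGacgcggtcgg
NOP10, far site (chr15:34343291-34343316, minus strand): agggacactcCACGTGttttagcctg
UTP4 (chr16:69132623-69132648, plus strand): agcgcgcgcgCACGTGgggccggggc
GNL3 (chr3:52686028-52686053, plus strand): cttcagttcaCACGTGgcgccagcgg
NAT10 (chr11:34105604-34105629, plus strand): tgcgcttgcgCACGTGctgtctacca
NOP14 (chr4:2963376-2963401, minus strand): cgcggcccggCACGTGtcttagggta
FBL (chr19:39846358-39846383, minus strand): cgctcttttcCACGTGcgaaagcccc
MRTO4 (chr1:19251809-19251834, plus strand): tcttccgccgCACGTGgattcagcgc
The cores of the hypoxia response element, ACGTG and GCGTG on either strand, were found in 60.5% and 73.7% of the 38 members and in 24.9% and 40.6% of all genes. ACGTG lies within CACGTG, so those counts overlap. The members' windows were also richer in GC than those of all genes, with medians of 63.7% and 58.7%.

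**Figure D3:**
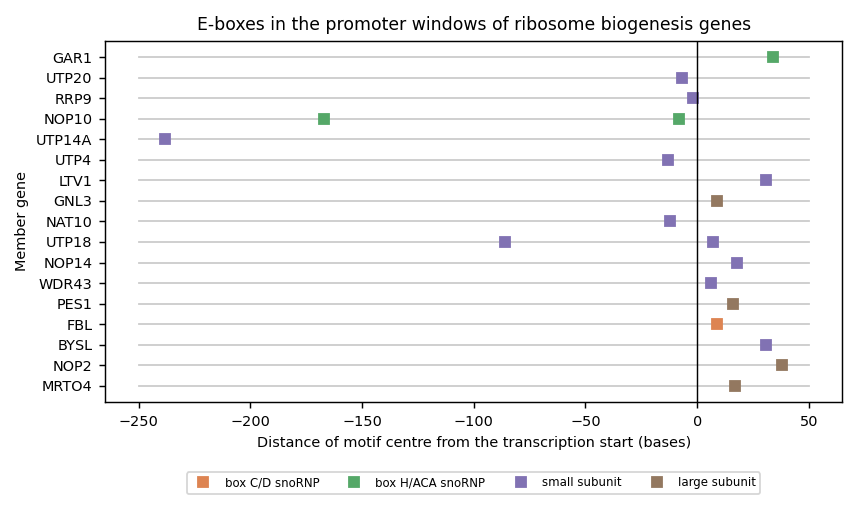
Distance in bases from the transcription start to the centre of each CACGTG (squares, coloured by role) in the 17 members whose RefSeq window holds one, with grey lines for the 300-base window. Genes run from the strongest fall in hypoxia cells at the top (GAR1) to the weakest at the bottom (MRTO4). Nearly all squares sit within 50 bases of the start.

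The same comparison in vesicles asks whether released RNA carried the fall. In hypoxia vesicles 21 of 43 members fell and none rose against normoxia vesicles, where 6.62% of 27904 genes tested were called lower and 5.68% higher. The unadjusted p was under 0.05 for 0 higher and 30 lower, edgeR called 27 lower and DESeq2 28, and neither called any higher. All 43 members had a negative log2 fold change, with a median of -0.76, against a median of 0.60 over all genes tested and -0.42 over protein-coding genes averaging 100 units or more. In 31 members the hypoxia libraries all lay below the normoxia libraries, where 14.5% of all genes did so, and none lay wholly above, where 23.4% did. Of 10259 protein-coding genes averaging 100 units or more, 1725 were called lower and 349 higher. Among these protein-coding genes 3655 lay wholly below and 809 wholly above. The count and the direction depended on the scaling. With equal totals, which shift every gene by 0.57 on the log2 scale here, only DKC1, NOLC1, TTF1 and WDR43 fell. Of the members, 12 then had a positive log2 fold change, and the median was -0.19. Over all 29132 genes tested with equal totals, 188 were called lower and 4404 higher, and the median was 1.21. The count also depended on single libraries. Without replicate 3 of the normoxia vesicles 32 members fell, and without any other vesicle library between 0 and 6 did. Calls over all genes moved in the same way. Without that replicate 3934 of 27979 genes tested were called lower, and without any other vesicle library 7 to 279 were.

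Of the abundant nucleolar proteins, NOLC1 fell in hypoxia vesicles, with 2002, 1761 and 1738 units in hypoxia vesicles and 4360.3, 4178 and 2867 units in normoxia vesicles (log2 fold change -1.03 ± 0.22, adjusted p = 0.0144). NCL did not pass the threshold although its groups did not overlap: it had 54382, 56344 and 55006 units in hypoxia vesicles, against 121003, 99770.5 and 82785 in normoxia vesicles (-0.86 ± 0.43, adjusted p = 0.156). The NCL values of the normoxia vesicles were spread over a wide range, while those of the hypoxia vesicles were nearly equal. NPM1 had 5941, 6650.1 and 6608 units in hypoxia vesicles, against 12393, 11499.8 and 7798 in normoxia vesicles (-0.70 ± 0.24, adjusted p = 0.0583). NPM3, the strongest responder in cells, had 97.5, 100.5 and 50.4 units in hypoxia vesicles, against 117, 90.1 and 145 in normoxia vesicles, and these overlapped (-0.53 ± 0.44).

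Among snoRNP proteins, DKC1 fell to 1001, 1038 and 921 units in hypoxia vesicles, against 2881, 2142 and 1734 in normoxia vesicles (log2 fold change -1.16 ± 0.22, adjusted p = 0.0112). NOP56 had 3612, 3365 and 3158 units in hypoxia vesicles, against 6625, 8005 and 4828 in normoxia vesicles (-0.91 ± 0.23, adjusted p = 0.0213). NOP58, its partner in box C/D particles, also fell (-0.85 ± 0.23). FBL had 363, 365 and 535 units in hypoxia vesicles, against 623, 960.3 and 439.8 in normoxia vesicles, an overlap that left it short of the threshold (-0.63 ± 0.27, adjusted p = 0.108). GAR1 had 45.4, 42.6 and 58.0 units in hypoxia vesicles, against 57.1, 97.3 and 50.8 in normoxia vesicles, and these overlapped too.

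Of the polymerase I genes, UBTF, RRN3 and TTF1 fell in hypoxia vesicles and the 2 polymerase subunits did not pass the threshold. TTF1 had 208, 159.9 and 161 units in hypoxia vesicles, against 471, 454 and 475 in normoxia vesicles, with a narrow spread in the normoxia group. Its log2 fold change of -1.41 ± 0.27 (adjusted p = 0.0112) was the lowest of the 43. RRN3 had 199, 179.7 and 262 units in hypoxia vesicles, against 588, 443 and 504 in normoxia vesicles (-1.27 ± 0.27, adjusted p = 0.0144). UBTF had 4908, 4755 and 4431 units in hypoxia vesicles, against 9306, 9223 and 6921 in normoxia vesicles (-0.84 ± 0.23, adjusted p = 0.0265). POLR1A had 1249, 1178 and 931 units in hypoxia vesicles, against 1458, 1686 and 1343 in normoxia vesicles, with no overlap but a smaller gap (-0.42 ± 0.21, adjusted p = 0.155). POLR1B had 413, 362 and 608 units in hypoxia vesicles, against 775, 542 and 571 in normoxia vesicles, which overlapped.

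In the small subunit 9 of 17 members fell in hypoxia vesicles, and in the large subunit 5 of 10. WDR43 had 969.8, 1090.1 and 1195 units in hypoxia vesicles, against 2902, 2293 and 1806 in normoxia vesicles (log2 fold change -1.08 ± 0.22, adjusted p = 0.0133). UTP18 had 732, 502 and 605 units in hypoxia vesicles, against 1403, 1540.4 and 967 in normoxia vesicles (-1.08 ± 0.23, adjusted p = 0.0148). NOP14 had 3744, 3362 and 3372 units in hypoxia vesicles, against 7234, 7286 and 4751 in normoxia vesicles (-0.85 ± 0.23). These 3 genes had hypoxia libraries that all lay below the lowest normoxia library. NOB1 had 960.5, 939 and 951 units in hypoxia vesicles, against 1772, 1501 and 1003 in normoxia vesicles (-0.54 ± 0.23, adjusted p = 0.0971). HEATR1 and NOP16, strong responders in cells, had log2 fold changes of -0.68 and -0.67 that did not pass. The large subunit members that fell were NOP2 (-0.84), PES1 (-0.73), RRP1B (-0.89), RRS1 (-0.93) and GNL3 (-0.87).

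Of the 94 other ribosome biogenesis genes, 37 fell and none rose in hypoxia vesicles (median log2 fold change -0.71), and with equal totals 2 fell and 1 rose. Those with the smallest p were large subunit factors, PELP1 (-0.99 ± 0.21), NOP53 (-1.0 ± 0.21), GNL2 (-0.94 ± 0.21) and FTSJ3 (-0.93 ± 0.21). The density of reads over near-silent genes moves with this comparison, since it was higher in hypoxia vesicles. Multiplied by a member's exon length, it came to a median of 7.81% of the member's own value in hypoxia vesicles and 2.10% in normoxia vesicles. It reached 157% for WDR12, 108% for PPAN, 71.0% for GAR1, 58.8% for UTP15 and 51.9% for UTP20 in hypoxia vesicles, and its part in the vesicle values of these 5 was not tested. When that density was subtracted, 23 members fell and the median was -0.90. Of the 19000 genes then tested, 3379 were called lower and 264 higher, and their median was -0.53. Since its genes were picked by their cell values, the density may hold true vesicle RNA, and the subtraction may remove too much. Markers of other cells moved with this comparison too. The epithelium sum was 176 to 290.0 units in hypoxia vesicles and 38.1 to 150.5 in normoxia vesicles, with no overlap. The blood sum was 68.1 to 113 in hypoxia vesicles and 19.0 to 48.6 in normoxia vesicles, and the liver and plasma sum 149 to 313 in hypoxia vesicles and 11.9 to 129 in normoxia vesicles, again with no overlap. Within the liver and plasma sum APOB averaged 184 units in hypoxia vesicles, against 6.24 for ALB and 22.9 for TTR. Every marker of these sums averaged under 20 units in both cell groups, the mark used for near-silent genes. The sums are thus not a measure separate from the near-silent density, and their part in the result was not tested.

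Vesicles were compared with cells of the same condition in a fit of all 12 libraries, and these comparisons share their libraries with those above. The set split: in normoxia vesicles 12 members were higher and 23 lower than in normoxia cells, and 8 passed in neither direction. Over all 24171 genes tested, 29% were called higher and 27.2% lower. The libraries did not overlap for 12 members higher and 23 lower, where 29.2% and 28.8% of all genes did so. In hypoxia vesicles 8 were higher and 27 lower than in hypoxia cells, where 40.6% of genes were called higher and 29.1% lower. Here the libraries did not overlap for 12 members higher and 29 lower, where 46% and 32.1% of all genes did so. Of 10259 protein-coding genes averaging 100 units or more, 1929 were called higher and 5191 lower in normoxia. In hypoxia 1414 of these were called higher and 6061 lower. Their libraries did not overlap for 2025 higher and 5410 lower in normoxia, and for 1691 higher and 6513 lower in hypoxia. The median log2 fold change of the members was -0.54 in normoxia and -0.86 in hypoxia, close to the medians of -0.53 and -0.73 over protein-coding genes averaging 100 units or more. Without replicate 3 of the normoxia vesicles 14 members were higher and 21 lower in normoxia, and their median was -0.26. Of the 23829 genes then tested, 6365 were called higher and 6648 lower. TMM factors, which shift every gene by -0.30 in normoxia and -0.49 in hypoxia on the log2 scale, gave 8 higher and 26 lower in normoxia and 2 higher (NCL and UBTF) and 30 lower in hypoxia. Equal totals gave 12 higher and 26 lower in hypoxia. Without replicate 1 of the hypoxia vesicles or replicate 1 of the hypoxia cells, 5 members were higher in hypoxia.

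**Figure D4:**
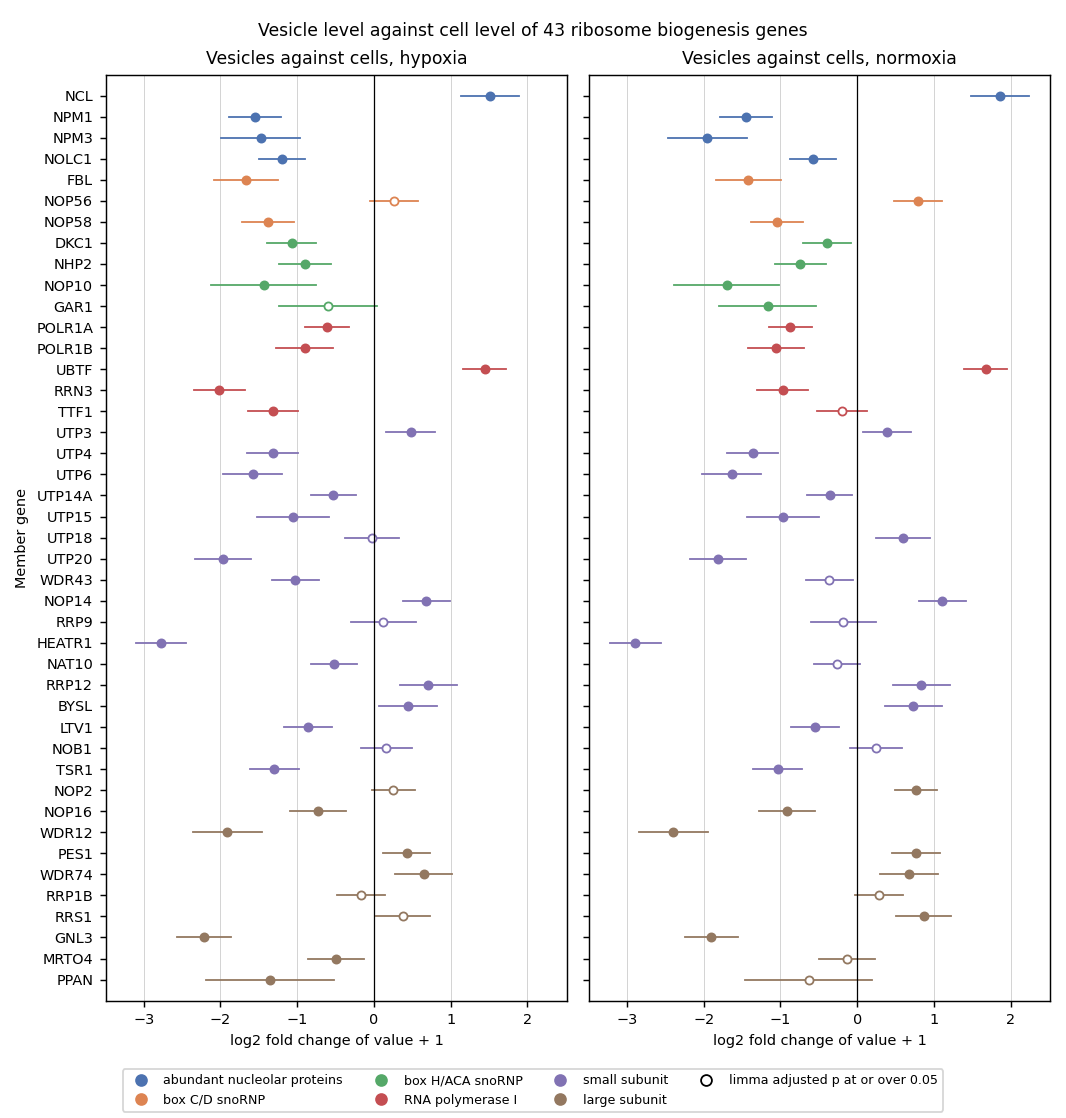
Log2 fold change (value + 1) of vesicles against cells in hypoxia (left) and normoxia (right) for 43 ribosome biogenesis genes, with 95% intervals as lines and colours for the role. NCL and UBTF lie furthest right and HEATR1 furthest left in both panels. Filled points, 35 of 43 in each panel, passed the threshold.

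NCL had the strongest vesicle level of any member. Its mean was 55244 ± 1002 units in hypoxia vesicles and 19352 ± 841 in hypoxia cells (SD, n = 3 each), and 101186 ± 19148 in normoxia vesicles and 27508 ± 2269 in normoxia cells. The vesicle mean was thus 2.85 times the cell mean in hypoxia and 3.68 times in normoxia (log2 fold changes 1.51 ± 0.19 and 1.86 ± 0.19, SE, adjusted p = 1.68e-06 and 1.8e-07). NPM1 went the other way, at 0.342 of the cell mean in hypoxia and 0.375 in normoxia (-1.55 ± 0.17 and -1.44 ± 0.17). The ratio of NCL to NPM1 was therefore 8.32 to 9.15 in hypoxia vesicles and 1.01 to 1.08 in hypoxia cells, and 8.68 to 10.6 in normoxia vesicles and 0.959 to 0.992 in normoxia cells. This ratio within a library does not depend on the scaling. NPM1 has 45 pseudogenes in the table, and their summed value came to 13.2% of that of NPM1 in hypoxia vesicles, 7.08% in normoxia vesicles, 3.07% in hypoxia cells and 2.37% in normoxia cells. NPM3 was also lower in vesicles, at 0.373 of the cell mean in hypoxia and 0.261 in normoxia.

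Of the snoRNP proteins, NOP56 was higher in normoxia vesicles than in normoxia cells (6486 ± 1593 and 3659.8 ± 158 units, log2 fold change 0.80 ± 0.16), while its partners NOP58 (-1.04) and FBL (-1.42) were lower. In hypoxia NOP56 did not pass (0.27 ± 0.16, adjusted p = 0.141), and NOP58 (-1.38) and FBL (-1.67) were lower again. In the H/ACA class DKC1, NHP2, NOP10 and GAR1 were all lower in normoxia vesicles, between -0.39 for DKC1 and -1.70 for NOP10. The DKC1 call was near the threshold (adjusted p = 0.0452). It was lost with no filter, with a replicate block, with the near-silent density subtracted and with the 6 libraries of both groups alone. Leaving out any of 5 of these 6 libraries also ended the call. In hypoxia vesicles DKC1 (-1.07), NHP2 (-0.90) and NOP10 (-1.44) were lower, and GAR1 did not pass (-0.60 ± 0.32, adjusted p = 0.108). Proteins that act in a single particle thus had mRNAs at different vesicle levels.

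In the polymerase I genes UBTF stood apart. It had 4698 ± 243 units in hypoxia vesicles and 1724 ± 70.1 in hypoxia cells, and 8483 ± 1354 in normoxia vesicles and 2635 ± 141 in normoxia cells (log2 fold changes 1.45 ± 0.14 and 1.67 ± 0.14). POLR1A and POLR1B were lower in vesicles in both conditions, with log2 fold changes of -0.61 and -0.90 in hypoxia and -0.87 and -1.06 in normoxia. RRN3 was lower in both, with a cell mean 4.01 times the vesicle mean in hypoxia (-2.01 ± 0.17) and 1.95 times in normoxia (-0.97 ± 0.17). TTF1 was lower in hypoxia vesicles (-1.32 ± 0.17), and in normoxia it did not pass (-0.20 ± 0.17, adjusted p = 0.328).

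Several processing factors were far lower in vesicles than in cells. HEATR1 had 302, 470.4 and 451 units in hypoxia vesicles and 752, 663 and 526 in normoxia vesicles, so that its cell mean was 6.73 times the vesicle mean in hypoxia and 7.35 times in normoxia (log2 fold changes -2.78 ± 0.17 and -2.89 ± 0.17). WDR12 had 97.5, 97.4 and 98.4 units in hypoxia vesicles and 197, 103 and 97.7 in normoxia vesicles, and its log2 fold changes were -1.91 ± 0.23 and -2.40 ± 0.23. GNL3 had 387, 467 and 504 units in hypoxia vesicles and 1066, 895 and 590.3 in normoxia vesicles (-2.22 ± 0.18 and -1.90 ± 0.18 against cells). UTP20 had 289.9, 364 and 325 units in hypoxia vesicles and 892, 494 and 545 in normoxia vesicles (-1.97 ± 0.19 and -1.81 ± 0.19). All 4 lay below every cell library of their condition.

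Other processing factors were higher in vesicles. NOP14 was at 1.60 times its cell mean in hypoxia and 2.20 times in normoxia (log2 fold changes 0.68 ± 0.16 and 1.11 ± 0.16). RRP12 had 1278, 1297 and 1067 units in hypoxia vesicles and 2678, 2297 and 1421 in normoxia vesicles (0.71 ± 0.19 and 0.84 ± 0.19). RRS1 had 399, 329 and 378 units in hypoxia vesicles, against 247, 319 and 286 in hypoxia cells (0.38 ± 0.18, adjusted p = 0.0691), and 847, 605 and 676 in normoxia vesicles, against 398, 331 and 433 in normoxia cells (0.87 ± 0.18). NOP2 had 2073, 1927 and 1889 units in hypoxia vesicles and 3806, 3938 and 2900.5 in normoxia vesicles (0.25 ± 0.14 and 0.77 ± 0.14, of which the second passed). WDR74 had 411, 347 and 325 units in hypoxia vesicles, against 229.9, 227 and 229.7 in hypoxia cells, and 495, 564 and 367 in normoxia vesicles, against 330.1, 256 and 297 in normoxia cells (0.65 ± 0.19 and 0.68 ± 0.19). WDR74 is uncertain, since 4.5% of its exon bases are shared on the same strand with the small nuclear RNA gene RNU2-2P. The hypoxia call of WDR74 was lost with the near-silent density subtracted, and both of its calls were lost under TMM factors. BYSL, PES1 and UTP3 were also higher in both conditions, and under TMM factors their log2 fold change in hypoxia turned slightly negative. The normoxia call of UTP3 was lost under TMM factors, edgeR, equal totals, no filter, density subtraction, a replicate block and a fit of these groups alone. It was also lost without replicate 1 of the normoxia vesicles or any single normoxia cell library. The hypoxia call of BYSL was lost without any single library of either group.

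The other ribosome biogenesis genes leaned lower in vesicles, with 4 higher and 68 lower of 94 in hypoxia and 7 higher and 61 lower in normoxia. WDR75, a processome subunit, was the lowest by p in both conditions (log2 fold change -3.09 ± 0.18 in hypoxia and -2.95 ± 0.18 in normoxia), followed by MTREX (-2.72), KRR1 (-2.55) and NOL11 (-2.52) in hypoxia and by NOL11 (-2.41), MTREX (-2.16) and NMD3 (-1.94) in normoxia.

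The base composition of the members was then set beside their vesicle level, as a description chosen after the values were seen. Across the 43 members the GC content of the coding sequence and the log2 fold change of vesicles against cells had a Spearman rho of 0.51 in hypoxia and 0.46 in normoxia, and over 10256 protein-coding genes rho was 0.59 and 0.56. None of the 12 members with a GC content under 45% had a positive log2 fold change in either condition, while 7 of 11 in hypoxia and 6 of 11 in normoxia did with 55% or more. Genes share libraries and base composition, so these are no independent points, and GC does not order the extremes: NCL, with the highest vesicle ratio, has a GC content of 46.7%.

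**Figure D5:**
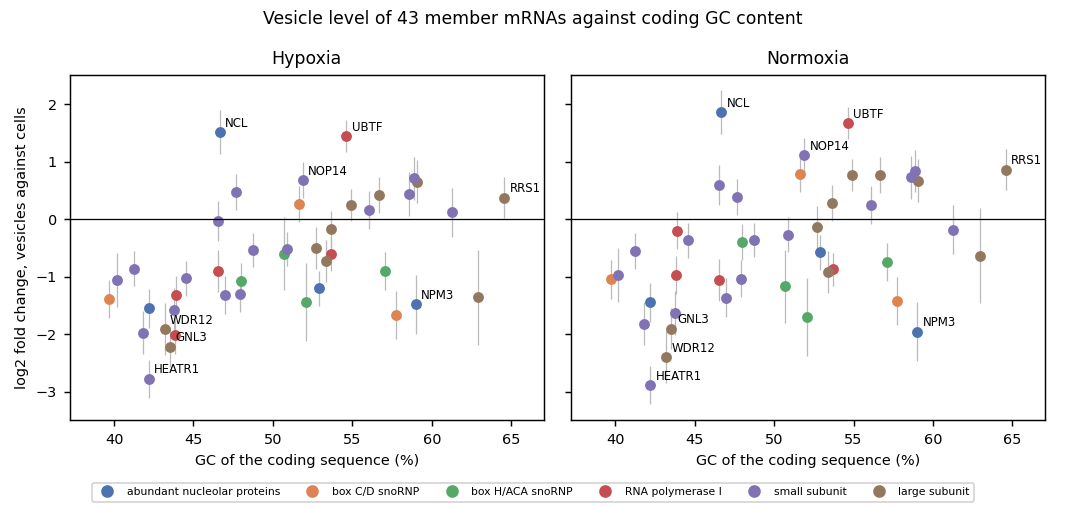
Log2 fold change of vesicles against cells (vertical axis, lines are 95% intervals) against the GC content of the coding sequence (%) in hypoxia (left) and normoxia (right) for 43 members, coloured by role. In both panels no member under 45% GC lies above 0, and NCL, at 46.7% GC, lies highest.

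Whether hypoxia acted differently on vesicle and cell RNA was tested as the response in vesicles minus the response in cells, over all 12 libraries. For 2 members, RRN3 and TTF1, the response in vesicles was lower, and for none higher, where 1.87% of 24171 genes were called lower and 0.443% higher. Of 10259 protein-coding genes averaging 100 units or more, 401 were called lower and 51 higher. The median difference was -0.25 for the members, -0.27 for these protein-coding genes and 0.23 over all genes tested. RRN3 had a log2 fold change of -1.27 in vesicles and -0.22 in cells, and the difference was -1.04 ± 0.24 (adjusted p = 0.0329). TTF1 had -1.41 in vesicles and -0.29 in cells, and the difference was -1.12 ± 0.24 (adjusted p = 0.0227). The unadjusted p was under 0.05 for 8 members, all of them lower, edgeR called 5 lower, DESeq2 6, and neither called any higher. For the other 41 members no difference was detected at this spread, and that of NCL, for example, was -0.35 ± 0.28. With equal totals neither RRN3 (-0.60) nor TTF1 (-0.68) passed, and POLR1A was called higher. Neither passed when any single cell library was left out (adjusted p 0.0799 to 0.117 for RRN3 and 0.0642 to 0.0955 for TTF1), and RRN3 did not pass without replicate 1 or 2 of the hypoxia vesicles (at most 0.0691). Without replicate 3 of the normoxia vesicles 17 members were called lower. In that setting 3158 of 23829 genes tested were called lower and 2280 higher.

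The members also host small nucleolar RNAs, which guide the modification that snoRNPs carry out. GENCODE 29 places 27 snoRNA genes inside 8 members on their own strand, of which 25 were in the table. Of these, 21 had a mean below 10 units in every group, and 7 were listed at 0 in all libraries. All 7 overlap exons of their host. SNORA75 in an intron of NCL was the only one tested in vesicles. It had 28.1, 36.5 and 32.8 units in hypoxia vesicles, against 188, 178 and 102 in normoxia vesicles (log2 fold change -2.19 ± 0.50, adjusted p = 0.0166), and 28.7, 40.2 and 71.9 units in hypoxia cells, against 42.8, 49.6 and 73.1 in normoxia cells (-0.29 ± 0.27, adjusted p = 0.46). The libraries overlapped in cells and did not in vesicles. The response in vesicles minus that in cells was -1.89 ± 0.56, which did not pass (limma, adjusted p = 0.0764).

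The counting of the authors could affect some members. Leaving aside microRNA genes, which lie in exons of NOP56 and DKC1, exons of 21 members overlap another gene, 6 on the same strand and 17 on the opposite strand, and in 7 members the overlap reaches 20% of the exon bases. HEATR1 overlaps LGALS8 on the opposite strand over 23.2% of its exon bases, and NHP2 overlaps RMND5B over 27.4%. On the same strand, LTV1 shares 27.7% of its exon bases with AL049844.3 and RRS1 shares 11.4% with AC009879.2, so both are uncertain too. The library kit keeps strand, but no source used here states whether the counting did.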

How the data were processed

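RNA of HEK293 cells and of their extracellular vesicles was sequenced in 12 libraries, 3 in each of 4 groups. The authors deposited 1 table of normalized signal per gene, and per the submitters' processing notes Bowtie 0.12.2 and DESeq2 1.30.1 were used with GRCh38. No source used here names the counter, the annotation or the strand setting. In each library all values (100%, tolerance 0.01) were whole multiples of 1 read, so reads were recovered; the design had assumed values that were not whole counts, and limma was kept as the test.

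The deposited signal was tested as log2(value + 1) with limma 3.58.1 (R 4.3.3), trended variance, for genes with a mean of at least 10, with Benjamini-Hochberg adjustment over all genes tested and a threshold of 0.05. Hypoxia was compared within cells and within vesicles over 6 libraries, and vesicles with cells, and the interaction, over all 12. Alternatives were edgeR 4.0.16 and DESeq2 1.42.0 on recovered reads, TMM factors, equal totals, other pseudocounts and filters, subtraction of the near-silent density, a replicate block and each library left out. The scripts were tested on simulated data. Named genes were a fixed set of core factors plus, per comparison and direction, the 5 called members whose 95% bound lay furthest from 0. The members and lists were chosen with earlier results of these data known. Exon lengths came from GENCODE 29.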

Additional observations from a re-analysis of the deposited data

Results flagged for a closer look

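RRN3 and TTF1, which start and end RNA polymerase I transcription, passed the test of the difference between the hypoxia response in vesicles and that in cells, but under some settings only. Of 10259 protein-coding genes averaging 100 units or more, 401 were called lower in that test. For RRN3 the response in vesicles minus that in cells was -1.04 on the log2 scale (limma, adjusted p = 0.0329), and over all alternatives that were run the adjusted p ran from 0.000341 to 0.126. For TTF1 it was -1.12 (adjusted p = 0.0227), with a range of 6.88e-05 to 0.107. For both, the 3 hypoxia libraries lay below the 3 normoxia libraries in vesicles and in cells alike, and 31 of 43 members did so in vesicles. With equal totals the differences were -0.60 and -0.68, and neither passed. Both calls were also lost with no filter and when any single cell library was left out. The near-silent density came to 32.9% of the RRN3 value and 30.8% of the TTF1 value in hypoxia vesicles, and with it subtracted the differences were -1.53 and -1.57.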

How the results depend on the processing

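The 2263 gene-level comparisons each set a member called in the main analysis against its result under an alternative. Of these, 2016 kept their direction and side of the threshold, and 244 kept the direction and no longer passed. Another 3 reversed, all under TMM factors in hypoxia vesicles against hypoxia cells (BYSL -0.045, PES1 -0.062 and UTP3 -0.0078). Members not called in the main analysis were left out, so calls gained under an alternative are not part of these counts. With all 12 libraries in the fit 3 members fell in cells and 33 in vesicles. In vesicles 4 members fell with equal totals, and 0 to 32 with 1 library left out. In cells 39 to 42 members fell with 1 library left out. Calls over all genes moved too. With all 12 libraries 25 genes were called lower in cells and 4419 in vesicles. In vesicles 188 genes were called lower with equal totals. With 1 library left out, 7 to 3934 genes were called lower in vesicles and 3112 to 3537 in cells. Members higher in hypoxia vesicles than in hypoxia cells numbered 8 in the main analysis, 2 under TMM, 5 under edgeR, 6 with the density subtracted, 7 with no filter, 10 under DESeq2, 11 with the 6 libraries of both groups alone and 12 with equal totals, and 5 to 7 with 1 library left out. In the interaction DESeq2 called 6 lower, TMM 5, edgeR 5, equal totals 0 lower and 1 higher, no filter 0, and leaving out 1 library 0 to 17. Over all genes tested DESeq2 called 1659 lower, TMM 1629, edgeR 1479, equal totals 152 and no filter 86. Leaving out 1 library gave 34 to 3158 genes lower. The cause of these changes was not tested. In their deviations from the group means, same-numbered libraries had correlations of -0.161 to 0.0448, and 3 of 12 correlated best with their own number. With 3 libraries a group, these correlations cannot decide whether same-numbered libraries came from the same culture. With a replicate block 42 members fell in cells, 28 in vesicles and 2 in the interaction, against 21 in vesicles in the main analysis. Vesicle libraries were shallower than cell libraries, which limits the precision of members with few reads.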
